A study of Saccharomyces cerevisiae with 18 samples.

Results

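The 39 genes described here encode the nuclear-encoded respiratory chain and ATP synthase of the budding yeast Saccharomyces cerevisiae. They were taken by locus name from a table of 6612 transcripts, and no measured value entered the rule. They comprise 3 NADH dehydrogenases, 4 subunits of succinate dehydrogenase (complex II), 9 of the cytochrome bc1 complex (complex III), 7 of cytochrome c oxidase (complex IV), 14 of ATP synthase, and the 2 ATPase inhibitors INH1 and STF1. The cytochrome c genes and the oxygen-regulated pair COX5A and COX5B were not members. RNA came from 18 cultures of 2 strains, RM11, which descends from a wine yeast, and YJM975, which was isolated from a patient; both are labelled as homozygous diploids with the a and α mating types. Each strain grew in a medium labelled S-CSM that held 2% glucose, 2% glycerol or 2% ethanol, and each of the 6 groups had 3 cultures, described as biological replicates. Cultures of 5 mL were taken in exponential growth at an OD600 of 0.5 to 1.0 and snap-frozen, and polyadenylated RNA was sequenced. The labels name no deletion, transgene or added agent in any group.

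Electrons enter the yeast chain from NADH through single-protein dehydrogenases on either face of the inner mitochondrial membrane, and from succinate through complex II. Ubiquinone carries them to complex III and cytochrome c carries them on to complex IV, and the proton gradient that these complexes build drives ATP synthase. In textbook accounts yeast represses most of these genes while it ferments glucose and raises them on non-fermentable carbon, with the HAP complex binding CCAAT sequences as an activator.

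Levels are TPM, transcript abundances scaled for length to a total of 1000000 in each library, so depth cannot be read from them and they carry no counting interval. Differences are on the log2(TPM + 1) scale, which understates the change of low genes, with the standard error of limma; a gene was called at a Benjamini-Hochberg adjusted p below 0.05 over 6309 tested transcripts. Media are named by their labels, because some of the 9 reference genes for the carbon source went against the glucose label and others did not. The hexokinase HXK2, which glucose induces, had group means of 2.30 TPM for RM11 and 5.08 TPM for YJM975 under that label, 71.3 TPM for RM11 on glycerol, and 1.79 to 5.26 TPM in the other 3 groups. PDC1, the main pyruvate decarboxylase of fermentation, had 173 and 59.3 TPM there, against 3269 to 7101 TPM in the other groups. The gluconeogenic gene FBP1, which glucose represses, was called lower on glycerol and on ethanol than under the glucose label in both strains, and PCK1 and MLS1 were called lower in each of these comparisons other than ethanol in YJM975. In the direction of the label, ADH2, the glucose-repressed alcohol dehydrogenase, was called higher in both strains on glycerol and on ethanol, and ICL1, PCK1 and MLS1 were called higher on ethanol in YJM975, although MLS1 lost its call there with each library centred on its median. ICL1 was also higher on glycerol in YJM975 and lower there in RM11, and the glucose-induced transporters HXT1 and HXT3 stayed at or below group means of 7.16 and 25.9 TPM. All 6 libraries labelled glucose also share an identifier prefix that the other 12 lack, so the medium and whatever the prefix marks cannot be told apart in comparisons with glucose. Ethanol against glycerol, and strain against strain, lie within a prefix. A list of 13 sporulation genes summed to 1047 ± 61.0 TPM (SD, n = 3) for RM11 on glycerol and to group means of 44.3 to 260.0 TPM elsewhere. A list of 13 haploid-specific genes, which a/α diploids repress, summed to group means of 369 to 893 TPM, most of it from MFA1 and MFA2, and HO stayed at or below 0.372 TPM.

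All 39 members passed the filter on low values. Their mean levels over the 18 libraries ran from 128 TPM for NDE1 to 6794 TPM for ATP15, and 37 of them were among the 500 most abundant transcripts. Short genes stood higher: across the 39 members, which share their libraries, mean TPM and coding length had a Spearman correlation of -0.87, beside -0.39 across 5778 tested transcripts with a length. ATP15, the ε subunit of the F1 head, has a coding length of 189 bases. ATP1 and ATP2, the catalytic head's α and β subunits, have 1638 and 1536 bases and mean levels of 593 and 1057 TPM, although the enzyme holds more copies of them than of the ε subunit.

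As a whole the members made up more of the RNA under the glucose label than in any other medium, in both strains. Their summed share of TPM was 10.1 ± 0.172% for RM11 and 13.2 ± 0.270% for YJM975 under the glucose label. On glycerol it was 4.09 ± 0.141% and 6.10 ± 0.159%, and on ethanol 5.88 ± 0.0472% and 4.80 ± 0.0306%, each for RM11 and then YJM975. The strains' libraries did not overlap in any medium, and their order on ethanol was the reverse of that in the other media. Complex III held 30.3 ± 0.404% of the members' own TPM for YJM975 under the glucose label, 25.4 ± 0.436% for RM11 there, and 20.5% to 22.0% as group means elsewhere. Complex II held 10.3 ± 0.344% and 10.4 ± 0.105% on ethanol for RM11 and YJM975, against 5.55% to 7.74% in the other groups.

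**Figure D1:**
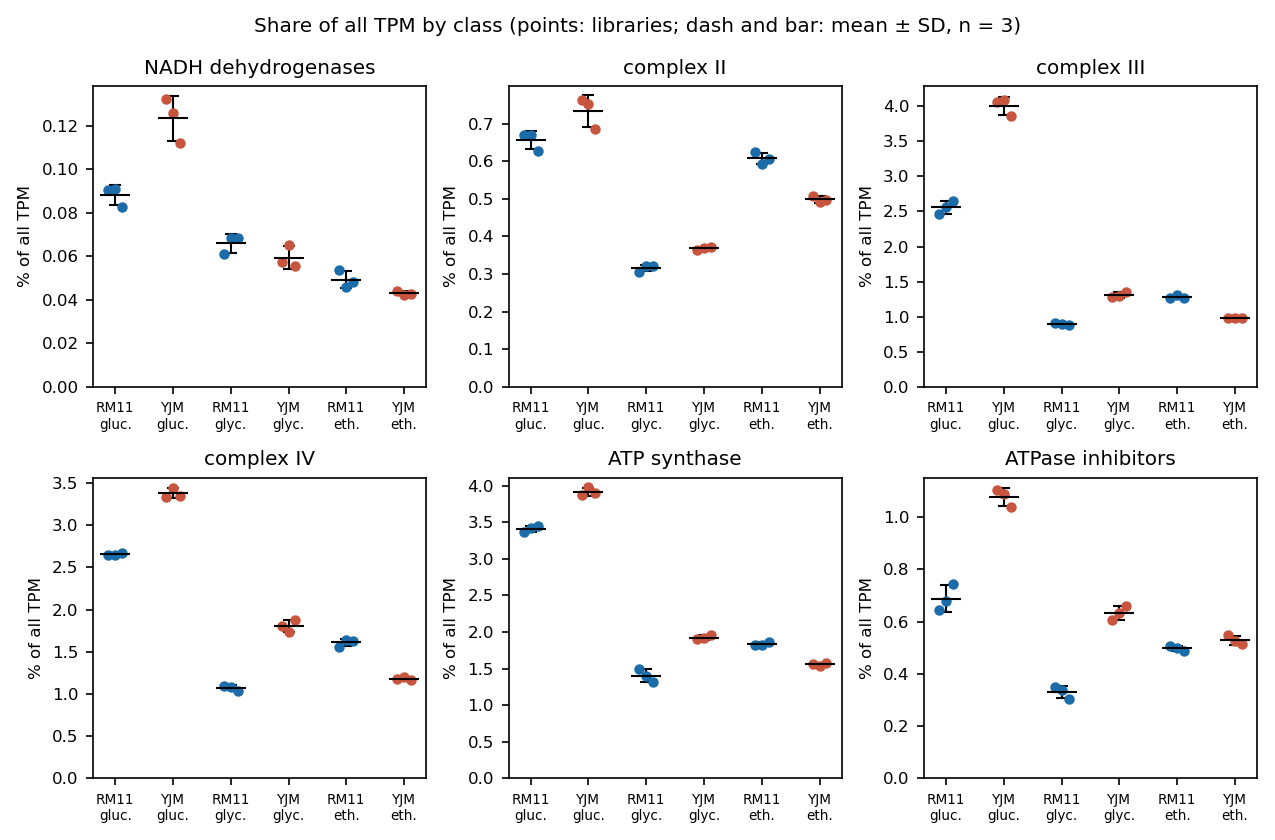
Share of all TPM (vertical axes, percent, each from 0) taken by each of the 6 classes in each of the 6 groups, with RM11 in blue and YJM975 in red. Points are libraries, and dashes with bars are means ± SD (n = 3). Complex III reaches 4.0 ± 0.125% for YJM975 under the glucose label, the highest class share of any group, and complex II for RM11 stands at 0.607 ± 0.0155% on ethanol against 0.316 ± 0.00857% on glycerol.

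The first comparison asked how the strains differ in each medium. Most members were higher in YJM975 on glycerol and under the glucose label, and lower in YJM975 on ethanol. In the comparison under the glucose label 22 of 39 members were called higher and 9 lower, against 22.5% and 60.7% of all tested transcripts, with a median difference of 0.20 for the members and -0.38 for all transcripts. On glycerol 33 were called higher and 2 lower, against 16.2% and 70.1%, with medians of 0.36 and -0.59. On ethanol 1 was called higher and 34 lower, against 26.8% and 21.2%, with medians of -0.27 and 0.028. Because TPM is relative and the median of all transcripts was shifted in most comparisons, the calls were also made with each library centred on its median transcript. With this centring, under the glucose label 43.7% of all tested transcripts were higher and 39.6% lower, while 35 members were higher and 1 lower, and of the 9 members first called lower the 7 other than NDE1 and NDE2 then had positive values. On glycerol 46.1% of all tested transcripts were higher and 37.6% lower, while 38 members were higher and 0 lower after centring. On ethanol 24.1% of all tested transcripts were higher and 28.5% lower, while 1 member was higher and 34 lower after centring. Quantile normalization instead moved the members' median under the glucose label to -0.0089, beside 0.059 for all transcripts. With it 15 of 39 members were higher and 10 lower, against 43.2% and 37.7% of all tested transcripts.

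Measured from the median of all transcripts, the classes lay in a different order in each medium. Their median strain difference under the glucose label was 1.01 for the inhibitors, 0.84 for complex III, 0.59 for complex IV, 0.45 for ATP synthase, 0.38 for complex II and -0.077 for the NADH dehydrogenases. On glycerol it was 1.48 for the inhibitors, 1.22 for complex IV, 0.95 for ATP synthase, 0.91 for complex III, 0.68 for complex II and 0.43 for the NADH dehydrogenases. On ethanol it was 0.088 for the inhibitors and between -0.49 for complex IV and -0.25 for ATP synthase in the other classes. Under the glucose label the highest and lowest member of a class lay 0.092 apart for the inhibitors. In the other classes they lay 0.79 to 1.94 apart there. On glycerol they lay 0.31 apart for the inhibitors and 0.64 to 1.12 apart in the other classes. The order of the classes was not tested. For most members the direction of the strain difference turned with the medium. Of the 39, 30 were called higher in YJM975 on glycerol, called lower on ethanol, and called different between these media by the interaction term. They were NDI1, 2 members of complex II, 7 of complex III, all 7 of complex IV and 13 of ATP synthase. This joint pattern was not counted over all transcripts. It can hold for at most 15.4% of them, the share with a negative call of the interaction term. INH1 was called higher in YJM975 in all 3 media. NDE1 and SDH1 were called lower in all 3, but after centring NDE1 kept its call on ethanol alone, and SDH1 had 0.11 under the glucose label and 0.50 on glycerol.

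**Figure D2:**
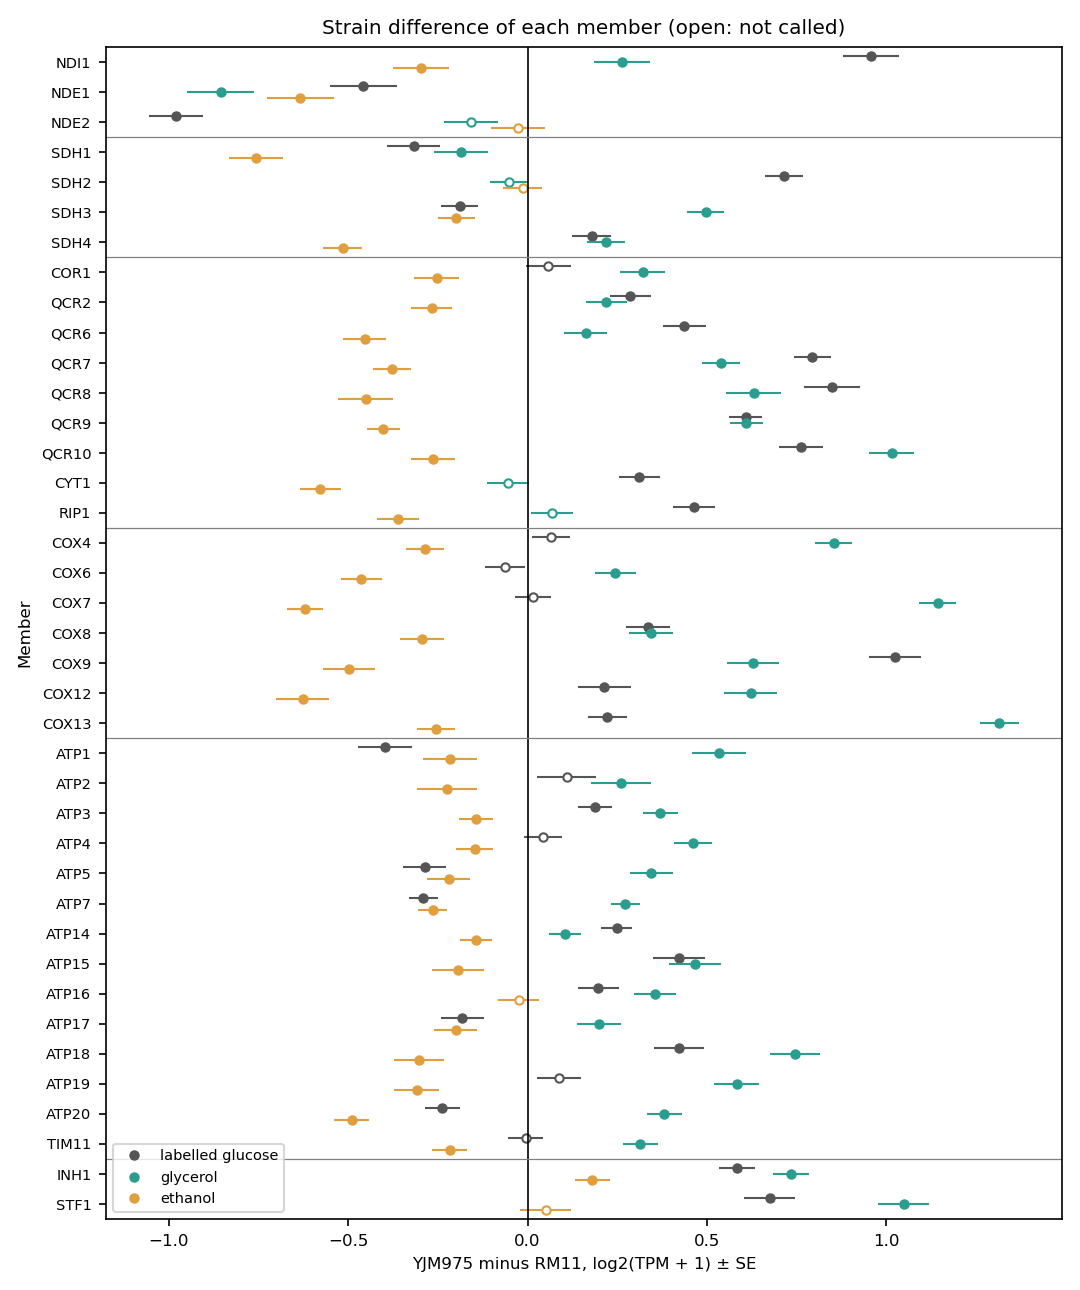
Strain difference (horizontal axis, YJM975 minus RM11 on the log2(TPM + 1) scale, ± SE from limma) of each of the 39 members (vertical axis), under the glucose label (grey), on glycerol (green) and on ethanol (orange). Filled points were called and open points were not. The ethanol points lie below 0 for all members but INH1 and STF1, while 33 of the glycerol points are filled and lie above 0.

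The second comparison asked how the members change with the carbon source within a strain. Nearly all stood highest under the glucose label, where the textbook order for cells that ferment glucose would place them lowest. Of 39 members, 28 had their highest group mean in YJM975 under the glucose label and 10 in RM11 under that label; NDE2 alone was highest elsewhere, in RM11 on ethanol. The lowest group mean was that of RM11 on glycerol for 26 members and that of YJM975 on ethanol for 10. From glucose to glycerol 37 members fell and 1 rose in RM11, against 28.7% and 53.0% of all transcripts, with a median change of -1.23 for the members and 0.23 for all. In YJM975 38 fell and 1 rose, against 42.6% and 41.2%, with medians of -1.02 and -0.017. From glucose to ethanol 35 fell and 2 rose in RM11, against 37.4% and 32.0%, with medians of -0.80 and -0.032. In YJM975 37 fell and 1 rose, against 30.3% and 56.5%, with medians of -1.22 and 0.35. Within a strain these comparisons share the glucose libraries, and 34 members fell in all 4. Falls in all 4 were not counted over all transcripts, where the share can be at most 28.7%. The 2 that rose from glucose to ethanol in RM11 were NDE2 and SDH2, and 1 was left without RM11 ethanol replicate 1 or RM11 glucose replicate 3. In RM11 from glucose to glycerol 38.5% of all tested transcripts were higher and 43.1% lower, while 1 member was higher and 38 lower after centring. In YJM975 from glucose to ethanol 40.9% of all tested transcripts were higher and 46.7% lower, while 1 member was higher and 38 lower after centring.

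**Figure D3:**
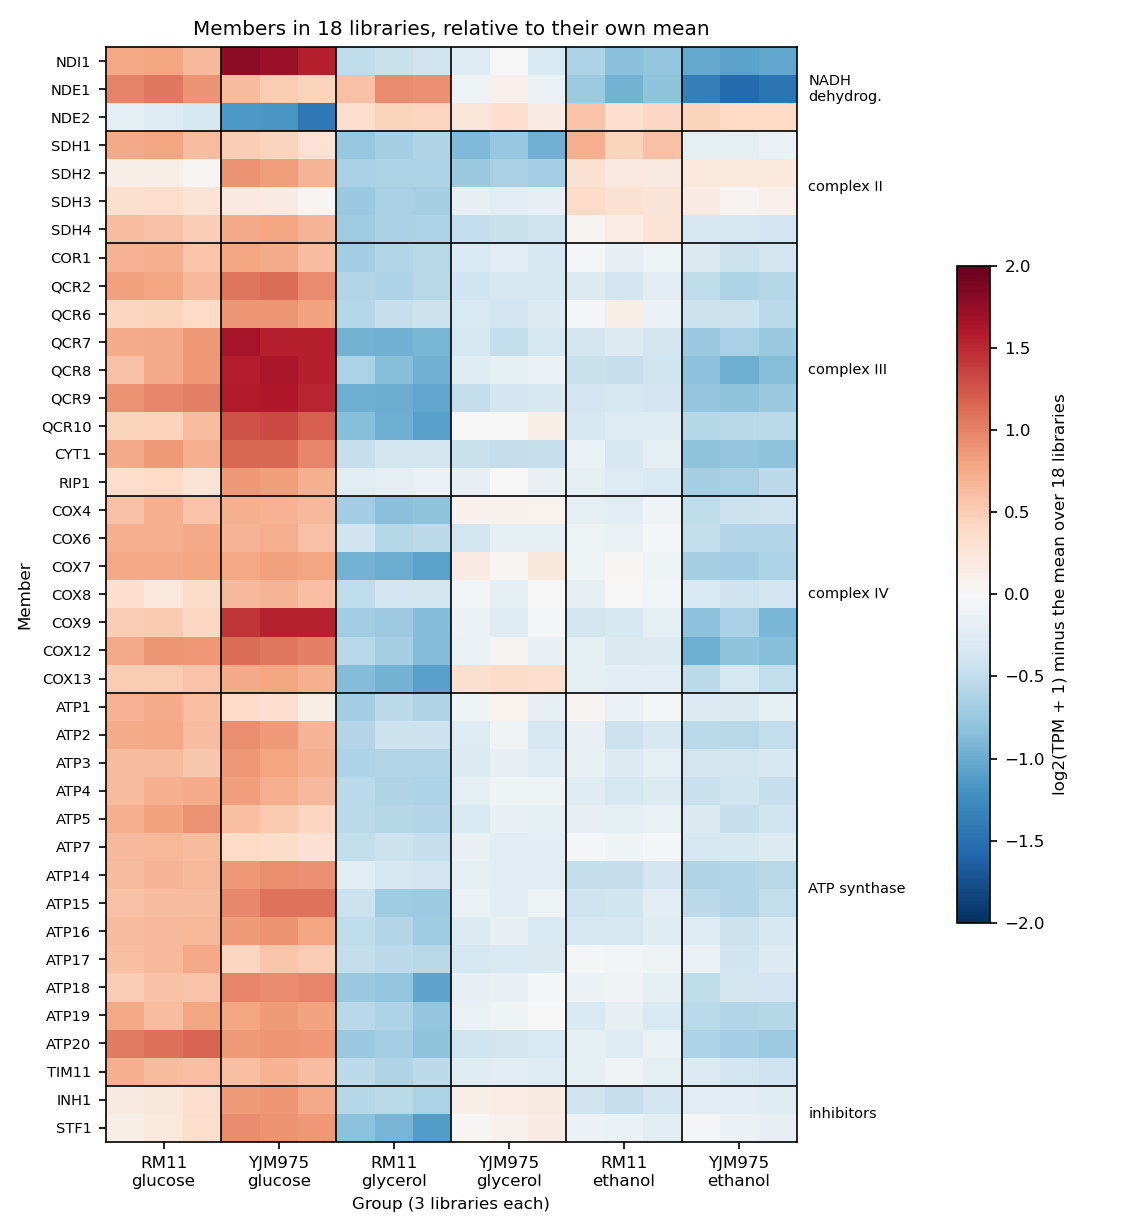
Level of each of the 39 members (rows, by class) in each of the 18 libraries (columns, 3 for each group), as log2(TPM + 1) minus the member's own mean over all libraries. Red is above and blue below that mean, on a colour scale from -2 to 2. The 6 libraries labelled glucose are red for nearly all members, and the row of NDE2 is blue there.

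The third comparison, ethanol against glycerol, leaves the glucose libraries out. Here the strains moved in opposite directions, since most members rose in RM11 and fell in YJM975. In RM11 33 of 39 rose and 3 fell from glycerol to ethanol, against 21.4% and 54.1% of all transcripts, with medians of 0.41 and -0.23. In YJM975 4 rose and 31 fell, against 64.0% and 13.1%, with medians of -0.31 and 0.36. The change in YJM975 minus that in RM11 was called negative for 36 members and positive for 0, against 15.4% and 65.4% of all transcripts, with medians of -0.62 and 0.60. At an unadjusted limma p below 0.05 the count of positive members was also 0. For 26 members the change was called up in RM11, called down in YJM975 and called different between the strains. They were all 7 of complex IV, 7 of complex III, 10 of ATP synthase and both inhibitors. This joint pattern was not counted over all transcripts, where the share can be at most 13.1%. SDH1, SDH2 and SDH3 rose in both strains, though SDH3 in YJM975 had -0.12 after centring. NDI1, NDE1 and ATP14 fell in both, though after centring NDI1 had 0.0077 and ATP14 0.19 in RM11. In RM11 43.5% of all tested transcripts were higher and 33.3% lower, while 37 members were higher and 1 lower after centring. In YJM975 32.3% of all tested transcripts were higher and 40.8% lower, while 2 members were higher and 37 lower after centring, and for the difference between the strains 33.7% of all tested transcripts were higher and 44.6% lower, while 0 members were higher and 39 lower. RM11 on glycerol, where 26 members had their lowest mean, was also the group in which the sporulation genes stood highest, and the part of this in the result was not tested.

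**Figure D4:**
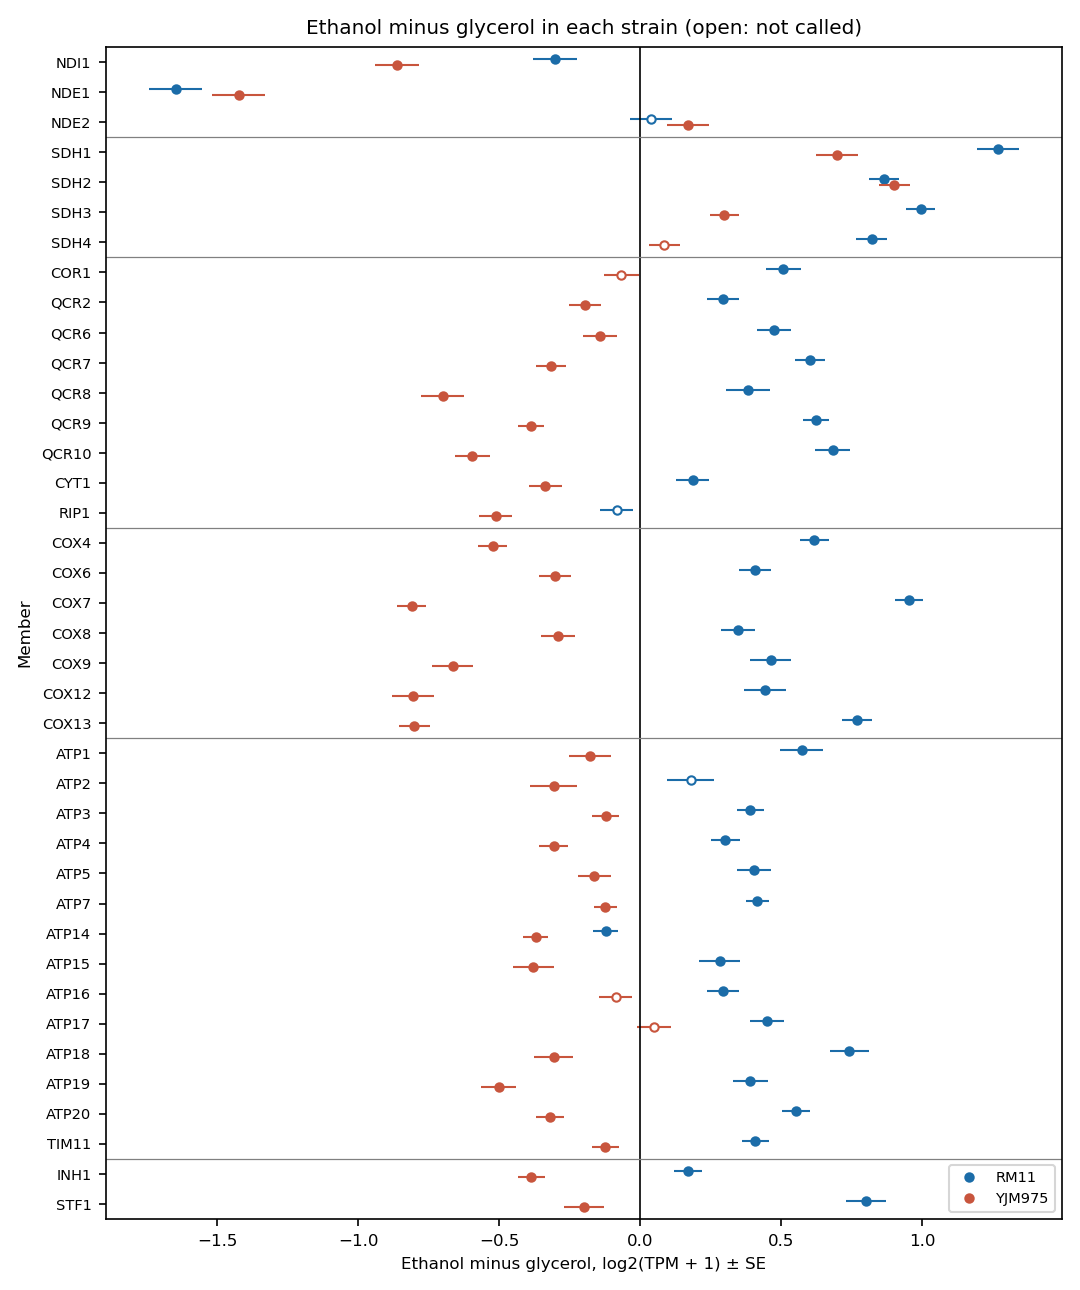
Change from glycerol to ethanol (horizontal axis, log2(TPM + 1), ± SE from limma) of each of the 39 members (vertical axis) in RM11 (blue) and YJM975 (red). Filled points were called and open points were not. The 7 members of complex IV lie above 0 in RM11 and below 0 in YJM975, and SDH1, SDH2 and SDH3 lie above 0 in both.

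The changes from glucose differed between the strains as well. To ethanol, the change in YJM975 minus that in RM11 was called negative for 32 members and positive for 1, NDE2, against 20.2% and 56.5% of all transcripts. To glycerol it was called positive for 20 and negative for 9, against 31.5% and 46.7%. After centring, for ethanol 35.4% of all tested transcripts were higher and 41.8% lower, while 1 member was higher and 38 lower, and for glycerol 43.4% of all tested transcripts were higher and 37.1% lower, while 29 members were higher and 2 lower. Of the 9 called negative to glycerol before centring, 4 belong to complex III, whereas 10 of the 20 called positive belong to ATP synthase and 5 to complex IV.

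The 3 NADH dehydrogenases did not move together. NDI1 is the internal enzyme, which oxidizes NADH of the matrix, and NDE1 and NDE2 are the external enzymes, which oxidize NADH of the cytosol. NDI1 (YML120C) had 526, 532 and 482 TPM for RM11 and 1070.5, 1026 and 905 TPM for YJM975 under the glucose label, 217, 225 and 234 TPM against 258, 307 and 249.6 TPM on glycerol, and 199, 171 and 178 TPM against 150.3, 146 and 149 TPM on ethanol. YJM975 was above RM11 in the first 2 media and below it on ethanol, with no overlap of libraries. Its strain differences were 0.96 ± 0.079 under the glucose label, 0.26 ± 0.079 on glycerol and -0.30 ± 0.079 on ethanol (limma adjusted p = 3.28e-09, 0.00489 and 0.00478). NDE1 (YMR145C) had 217, 226 and 203 TPM for RM11 and 169, 154 and 147 TPM for YJM975 under the glucose label, 162, 210.0 and 205 TPM against 101, 117 and 99.0 TPM on glycerol, and 64.8, 55.5 and 61.5 TPM against 41.3, 36.0 and 38.7 TPM on ethanol. All 9 YJM975 libraries were below the RM11 libraries of the same medium in TPM, and both strains were lowest on ethanol. After centring, its strain differences were -0.031 under the glucose label and -0.17 on glycerol, neither called (limma adjusted p = 0.743 and 0.0754), and -0.68 on ethanol, which was called. Its change from glycerol to ethanol, -1.65 ± 0.094 in RM11 and -1.42 ± 0.094 in YJM975, was the largest fall among the members in either strain. NDE2 (YDL085W) had 159.9, 153 and 143 TPM for RM11 and 82.2, 80.9 and 67.3 TPM for YJM975 under the glucose label, 231, 249.6 and 245 TPM against 215, 230.5 and 206 TPM on glycerol, and 272, 232 and 243 TPM against 248, 242 and 241 TPM on ethanol. NDE2 was the one member lowest under the glucose label in both strains, and YJM975 was below RM11 there without overlap. It rose from glucose to ethanol by 0.71 ± 0.075 in RM11 and 1.66 ± 0.075 in YJM975, a difference between the strains of 0.95 ± 0.11. The ratio of NDE1 to NDE2 within a library fell accordingly, from 1.42 ± 0.0614 for RM11 and 2.05 ± 0.145 for YJM975 under the glucose label to 0.243 ± 0.00810 and 0.159 ± 0.00911 on ethanol. The coding sequences of NDE1 and NDE2 are 65.0% identical over 85.8% of NDE1 in the reference assembly, so some reads could be shared between them.

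Complex II, which also works in the tricarboxylic acid cycle, had on ethanol 92.7% of its share of all TPM under the glucose label in RM11 and 67.9% in YJM975, the highest ratio of any class in each strain. SDH1 is the flavoprotein, SDH2 the iron-sulfur protein, and SDH3 and SDH4 anchor the enzyme in the membrane. SDH1 (YKL148C) had 814, 837 and 744 TPM for RM11 and 678, 656 and 588 TPM for YJM975 under the glucose label, 285, 304 and 317 TPM against 261, 286 and 249 TPM on glycerol, and 804, 661 and 723 TPM against 424, 426 and 439 TPM on ethanol. YJM975 was below RM11 under the glucose label and on ethanol without overlap, and the strains overlapped on glycerol. Its strain difference on ethanol, -0.76 ± 0.075, was the most negative of any member in that medium. SDH2 (YLL041C) had 1448, 1445 and 1363 TPM for RM11 and 2476, 2387 and 2133 TPM for YJM975 under the glucose label, 849, 855 and 865 TPM against 799, 852 and 828 TPM on glycerol, and 1656, 1519 and 1505 TPM against 1551, 1540.5 and 1539 TPM on ethanol. The strains were apart under the glucose label, with YJM975 higher by 0.71 ± 0.054, and overlapped on glycerol and ethanol. Its change from glucose to glycerol differed between the strains by -0.77 ± 0.076 (limma adjusted p = 6.16e-08), the most negative such value among the members. SDH3 (YKL141W) had 2146, 2183 and 2074 TPM for RM11 and 1959, 1916 and 1746 TPM for YJM975 under the glucose label, 1020.2, 1096 and 1079 TPM against 1528, 1459.9 and 1520.3 TPM on glycerol, and 2228, 2101 and 2038 TPM against 1922, 1779 and 1845 TPM on ethanol. YJM975 was above RM11 on glycerol, by 0.50 ± 0.052, and below it in the other media, although the difference under the glucose label was 0.24 after centring. SDH4 (YDR178W) had 2281, 2227 and 2095 TPM for RM11 and 2517, 2573 and 2383 TPM for YJM975 under the glucose label, 909, 945 and 961 TPM against 1060.2, 1097 and 1121 TPM on glycerol, and 1543, 1641 and 1799 TPM against 1173, 1164 and 1141 TPM on ethanol. From glycerol to ethanol SDH4 rose by 0.82 ± 0.054 in RM11, while its change in YJM975, 0.086 ± 0.054, was not called. The subunits kept no fixed proportion: the ratio of SDH2 to SDH1 was 1.78 ± 0.0537 for RM11 and 3.64 ± 0.0121 for YJM975 under the glucose label, and 2.15 ± 0.132 and 3.59 ± 0.0803 on ethanol.

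Paralogs of complex II subunits, which were not members, rose where most members fell. SDH9 is a paralog of SDH1, SHH3 of SDH3 and SHH4 of SDH4, and all 3 rose from glucose to glycerol and from glucose to ethanol in both strains. Of all transcripts, 53.0% in RM11 and 41.2% in YJM975 rose to glycerol, and 32.0% and 56.5% to ethanol. After centring 2 of the 3 paralogs were higher on glycerol in RM11, against 38.5% of all tested transcripts, and all 3 in each other comparison. The shares there were 41% on glycerol in YJM975, and 35.6% and 40.9% on ethanol in RM11 and YJM975. SHH4 went from 128 ± 8.56 TPM for RM11 and 38.7 ± 3.46 TPM for YJM975 under the glucose label to 345 ± 25.5 and 354 ± 27.7 TPM on ethanol. SDH9 went from 23.5 ± 1.43 and 16.6 ± 1.19 TPM to 119 ± 5.21 and 131 ± 5.13 TPM between the same media. All 3 were lower in YJM975 under the glucose label, against 60.7% of all transcripts. The differences were -1.67 ± 0.04 for SHH3 and -1.71 ± 0.08 for SHH4, while SDH9 lost its call after centring, at -0.053. In the reference SDH1 and SDH9 are 77.0% identical over 93.3% of SDH1, so their division of reads is uncertain.

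**Figure D5:**
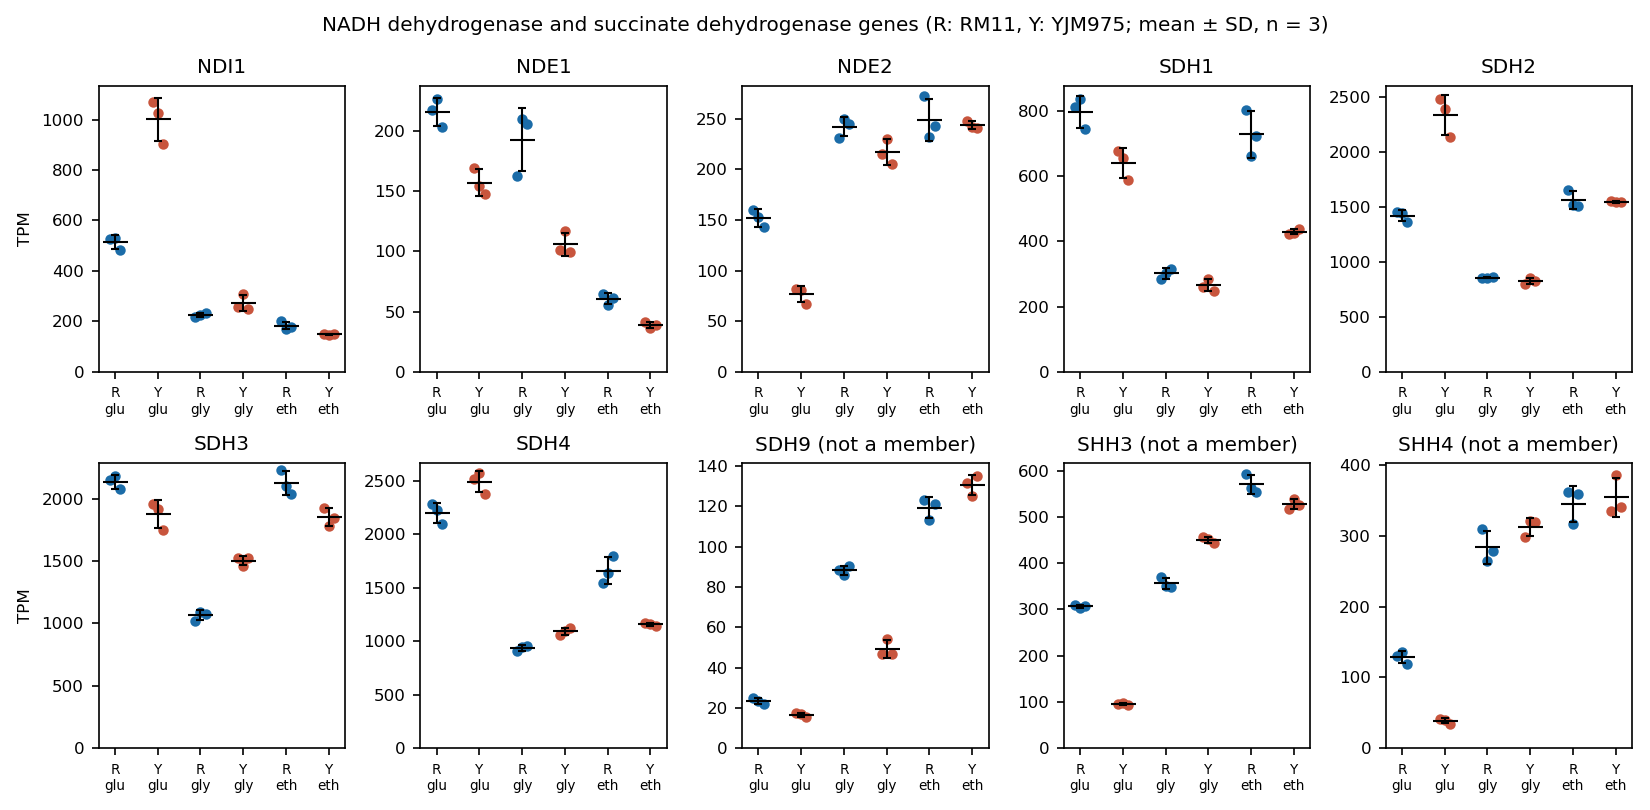
TPM (vertical axes, each from 0) of the 3 NADH dehydrogenases, the 4 complex II members and the 3 paralogs in each library, with RM11 in blue and YJM975 in red. Points are libraries, and dashes with bars are means ± SD (n = 3). NDE2, SDH9, SHH3 and SHH4 are lowest under the glucose label in both strains, where NDI1 is highest, at 1000.4 ± 85.6 TPM for YJM975.

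Complex III passes electrons from ubiquinone to cytochrome c, with cytochrome c1 (CYT1) and the Rieske iron-sulfur protein (RIP1) as redox subunits and COR1 and QCR2 as large core proteins. Under the glucose label 8 of its 9 members were higher in YJM975 and 0 lower, against 22.5% and 60.7% of all transcripts. On ethanol all 9 were lower, against 21.2% of all transcripts. QCR9 (YGR183C), a small subunit and the most abundant member of the complex, had 7523, 7884 and 8077 TPM for RM11 and 12057, 12218 and 11515 TPM for YJM975 under the glucose label, 2051, 2025 and 1964 TPM against 2899.8, 3098 and 3227 TPM on glycerol, and 3069, 3159 and 3082 TPM against 2337, 2311 and 2397 TPM on ethanol. QCR10 (YHR001W-A), another small subunit, had 3965, 4031 and 4483 TPM for RM11 and 7082, 7339 and 6737 TPM for YJM975 under the glucose label, 1615, 1482 and 1384 TPM against 2935, 2906 and 3205 TPM on glycerol, and 2292, 2450.0 and 2437 TPM against 1979.8, 1986 and 2014 TPM on ethanol. Both were above RM11 in YJM975 under the glucose label and on glycerol and below it on ethanol, without overlap, and the glycerol difference of QCR10, 1.01 ± 0.062, was the largest of the complex. QCR8 (YJL166W), also a small subunit, had 2979, 3351 and 3605 TPM for RM11 and 5871, 6173 and 5800.4 TPM for YJM975 under the glucose label, 1276, 1098 and 1014 TPM against 1683, 1734 and 1809.6 TPM on glycerol, and 1459.7, 1438 and 1498 TPM against 1122, 1004 and 1091 TPM on ethanol. It had the same order of strains and the largest difference of the complex under the glucose label, 0.85 ± 0.077. CYT1 (YOR065W) had 807, 862 and 781 TPM for RM11 and 1054, 1054 and 936 TPM for YJM975 under the glucose label, 344, 366 and 367 TPM against 348, 343 and 346 TPM on glycerol, and 434, 377 and 417 TPM against 272, 278 and 270.4 TPM on ethanol. CYT1 had the most negative strain difference of the complex on ethanol, -0.58 ± 0.058, and the strains overlapped on glycerol. On glycerol neither CYT1, at -0.055 ± 0.058, nor RIP1, at 0.069 ± 0.059, was called, whereas after centring both were called higher in YJM975, at 0.63 and 0.76. The small subunits QCR6, QCR7, QCR8, QCR9 and QCR10 had strain differences under the glucose label from 0.44 to 0.85, RIP1 had 0.46 ± 0.059 and CYT1 0.31 ± 0.058, and the core proteins COR1 and QCR2 had 0.058 ± 0.062 and 0.29 ± 0.057; this contrast between subunits was not tested. From glucose to ethanol QCR8 changed by -2.47 ± 0.077 in YJM975, the largest fall of the complex, and by -1.17 ± 0.077 in RM11, a called difference of -1.30 ± 0.11.

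Complex IV passes electrons from cytochrome c to oxygen, and its nuclear-encoded subunits surround a core encoded in mitochondrial DNA. All 7 members were higher in YJM975 on glycerol, against 16.2% of all transcripts, and lower on ethanol, against 21.2%. Under the glucose label 4 were higher, against 22.5% of all transcripts, and COX4, COX6 and COX7 were not called. Of those 4, COX8, COX12 and COX13 turned to -0.12, -0.028 and -0.072 with quantile normalization, and COX9 did not turn. COX7 (YMR256C), the most abundant of them, had 8329, 8390.1 and 8418 TPM for RM11 and 8347, 8613 and 8453 TPM for YJM975 under the glucose label, 2551, 2464 and 2335 TPM against 5489.8, 5035 and 5722 TPM on glycerol, and 4596, 4999.6 and 4628 TPM against 3081, 3022 and 3145 TPM on ethanol. The strains overlapped under the glucose label, and stood apart in opposite orders on glycerol and ethanol. COX7 differed by 1.14 ± 0.051 on glycerol, and its change from glycerol to ethanol differed between the strains by -1.76 ± 0.072, the largest such difference among the members. COX8 (YLR395C) had 5909, 5443 and 6041 TPM for RM11 and 7324, 7498 and 7127 TPM for YJM975 under the glucose label, 3286, 3591 and 3623 TPM against 4503, 4119 and 4710.2 TPM on glycerol, and 4167, 4667 and 4517 TPM against 3784, 3508 and 3590.1 TPM on ethanol. It varied less with the medium than COX7, and its strain difference on glycerol was 0.34 ± 0.061. COX13 (YGL191W), a peripheral subunit, had 2609, 2615 and 2712 TPM for RM11 and 3096, 3173 and 2991 TPM for YJM975 under the glucose label, 998, 947 and 861 TPM against 2278, 2362 and 2332 TPM on glycerol, and 1615, 1574 and 1584 TPM against 1274, 1429 and 1302 TPM on ethanol. Its strain difference on glycerol, 1.32 ± 0.054 (limma adjusted p = 1.67e-13), was the largest of all members in any medium. COX9 (YDL067C), a small membrane subunit, had 4538, 4681 and 4317 TPM for RM11 and 8721, 9424 and 9414 TPM for YJM975 under the glucose label, 2007, 1969 and 1782 TPM against 2998, 2752 and 3151 TPM on glycerol, and 2507, 2605 and 2819 TPM against 1826, 2078 and 1719 TPM on ethanol. COX9 had the largest strain difference of all members under the glucose label, 1.03 ± 0.073. Its change from glucose to ethanol was -2.30 ± 0.073 in YJM975 and -0.77 ± 0.073 in RM11, a called difference of -1.52 ± 0.10. COX12 (YLR038C), which faces the intermembrane space, had 2811, 3062 and 3028 TPM for RM11 and 3576, 3425 and 3323 TPM for YJM975 under the glucose label, 1125, 1041 and 910.4 TPM against 1515, 1719 and 1494 TPM on glycerol, and 1443, 1354 and 1370.1 TPM against 838, 946 and 917 TPM on ethanol, and its ethanol difference of -0.63 ± 0.073 was the most negative of the complex.

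ATP synthase joins a catalytic F1 head (ATP1, ATP2, ATP3, ATP15 and ATP16) to a proton-conducting membrane part through a stalk with subunits such as ATP4, ATP5 and ATP7, and ATP20 and TIM11 are known for holding dimers together. All 14 members were higher in YJM975 on glycerol, against 16.2% of all transcripts. On ethanol 13 were lower, against 21.2% of all transcripts, and ATP16 was not called. Under the glucose label 5 were higher, against 22.5% of all transcripts, and 4 were not called. ATP1, ATP5, ATP7, ATP17 and ATP20 were lower there, against 60.7% of all transcripts, although these 5 turned positive after centring. Of the 5 higher ones, ATP14 and ATP18 turned to -0.0089 and -0.084 with quantile normalization. ATP15 (YPL271W) had 9223, 9537 and 9552 TPM for RM11 and 11969, 13007 and 13005 TPM for YJM975 under the glucose label, 4576, 3759 and 3712 TPM against 5597, 5277 and 5713 TPM on glycerol, and 4619.6, 4671 and 5316 TPM against 4283, 4117 and 4353 TPM on ethanol. YJM975 was higher in the first 2 media, by 0.42 ± 0.073 and 0.47 ± 0.073. Its ethanol difference, -0.19 ± 0.073, lost its call without RM11 ethanol replicate 3 or without any 1 of the YJM975 ethanol replicates, and was then -0.21 to -0.13. The call was also lost with no filter on low values, where the limma adjusted p was 0.056, and with the trend on coding length removed, where it was 0.172. ATP18 (YML081C-A), a small membrane subunit, had 5165, 5537 and 5479 TPM for RM11 and 7261, 7125 and 7283 TPM for YJM975 under the glucose label, 2212, 2135 and 1774 TPM against 3294, 3331 and 3596 TPM on glycerol, and 3415, 3528 and 3252 TPM against 2582, 2859.9 and 2823 TPM on ethanol. It had the largest strain difference of the enzyme on glycerol, 0.74 ± 0.07, with YJM975 above RM11 in all libraries there and below it on ethanol. ATP20 (YPR020W) had 1478, 1555 and 1615 TPM for RM11 and 1297, 1332 and 1311 TPM for YJM975 under the glucose label, 432, 451 and 414 TPM against 546, 559 and 585 TPM on glycerol, and 629.7, 612 and 661 TPM against 470.1, 448 and 435 TPM on ethanol. Its ethanol difference of -0.49 ± 0.049 was the most negative of the enzyme, and it had the largest falls of the enzyme from glucose to glycerol, -1.84 ± 0.049 in RM11 and -1.22 ± 0.049 in YJM975. ATP1 (YBL099W) had 922, 957 and 864 TPM for RM11 and 739, 721 and 624 TPM for YJM975 under the glucose label, 349.7, 396 and 376 TPM against 538, 595 and 495 TPM on glycerol, and 589, 522 and 559 TPM against 472, 467 and 497 TPM on ethanol. YJM975 was below RM11 under the glucose label and above it on glycerol, and the difference between these strain differences, 0.93 ± 0.11, was the largest of the enzyme. From glucose to glycerol all 14 fell in both strains, against 28.7% of all transcripts in RM11 and 42.6% in YJM975. The smallest falls were those of ATP14 in RM11, -0.98 ± 0.044, and of ATP1 in YJM975, -0.36 ± 0.075.

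INH1 and STF1 encode small proteins that bind ATP synthase and hold back its hydrolysis of ATP. Both were higher in YJM975 under the glucose label and on glycerol, and INH1 was the one member called higher in YJM975 on ethanol. INH1 (YDL181W) had 2075, 2142 and 2332 TPM for RM11 and 3319.8, 3394 and 3101 TPM for YJM975 under the glucose label, 1237, 1263 and 1183 TPM against 1996, 2048 and 2086 TPM on glycerol, and 1395, 1333 and 1410.5 TPM against 1565, 1571 and 1554 TPM on ethanol. The YJM975 libraries were above those of RM11 in every medium, by 0.58 ± 0.05, 0.74 ± 0.05 and 0.18 ± 0.05 in that order (limma adjusted p = 5.22e-09, 1.69e-10 and 0.00601). STF1 (YDL130W-A) had 4364, 4634 and 5113 TPM for RM11 and 7732, 7481 and 7283 TPM for YJM975 under the glucose label, 2263, 2117 and 1847 TPM against 4067, 4265 and 4521 TPM on glycerol, and 3682, 3655 and 3464 TPM against 3920.2, 3673 and 3599.9 TPM on ethanol. YJM975 was higher by 0.68 ± 0.071 and 1.05 ± 0.071 in the first 2 media, and on ethanol the strains overlapped, at 0.051 ± 0.071. Within a library, where the common scaling of TPM cancels, INH1 was also set against the median of the 14 ATP synthase members. That ratio was 1.48 ± 0.0965 for RM11 and 2.26 ± 0.0568 for YJM975 under the glucose label, 2.03 ± 0.0792 and 2.68 ± 0.113 on glycerol, and 1.83 ± 0.00482 and 2.27 ± 0.0727 on ethanol. The same ratio for STF1 was 3.19 ± 0.267 and 5.18 ± 0.133, 3.43 ± 0.254 and 5.62 ± 0.400, and 4.79 ± 0.278 and 5.41 ± 0.127.

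Cytochrome c and the COX5 subunit each have an isoform known to rise when oxygen or heme is low, and these isoforms set the strains far apart under the glucose label. CYC7, the low-oxygen cytochrome c, had 231, 235 and 243 TPM for RM11 and 2823, 2897 and 2747 TPM for YJM975 there, a difference of 3.57 ± 0.055. COX5B, the low-oxygen form of the oxidase subunit, had 70.7, 64.1 and 70.7 TPM against 381, 385 and 373 TPM, a difference of 2.45 ± 0.063. CYC1, the main cytochrome c, had 579 ± 17.7 TPM for RM11 and 154 ± 8.34 TPM for YJM975 on ethanol, a difference of -1.91 ± 0.048. Of these 3 genes and COX5A, 3 were higher and 1 lower in YJM975 under the glucose label, against 22.5% and 60.7% of all transcripts. On glycerol 4 were higher, against 16.2% of all transcripts, and on ethanol 3 were lower, against 21.2%. HAP4, the regulated activator subunit of the HAP complex, had 569 ± 24.1 TPM for RM11 and 556 ± 39.4 TPM for YJM975 under the glucose label, 249.6 ± 9.87 and 129 ± 2.68 TPM on glycerol, and 126 ± 9.84 and 119 ± 4.16 TPM on ethanol. In each strain it was highest under the glucose label, where most members were highest too. From glycerol to ethanol in RM11 its mean fell, while 33 members rose. On glycerol, where 33 members were higher in YJM975, HAP4 was lower, with a difference of -0.95 ± 0.061, or -0.26 after centring. Of the 5 genes HAP1 to HAP5, 0 were higher and 3 lower there, against 16.2% and 70.1% of all transcripts. After centring 3 were higher and 1 lower, against 46.1% and 37.6%. The part of these genes in the members' levels was not tested.

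Other genes that serve the chain were counted by list. Of 24 assembly factors of complex IV, 17 were higher and 5 lower in YJM975 on glycerol, and 2 higher and 12 lower on ethanol, against 16.2% and 70.1% of all transcripts on glycerol and 26.8% and 21.2% on ethanol. COX17, the copper chaperone of the oxidase, had the largest difference among them on glycerol, 0.99 ± 0.064. Of 11 assembly factors of ATP synthase, 2 were higher and 6 lower in YJM975 on glycerol, against 16.2% and 70.1% of all transcripts. Their median was -0.17 beside -0.59 for all transcripts. After centring 9 of these 11 were higher and 1 lower, against 46.1% and 37.6% of all tested transcripts. Of 9 assembly factors of complex III, 1, CBP6, was lower in YJM975 on ethanol, against 21.2% of all transcripts. After centring 2 of the 9 were lower there, against 28.5% of all tested transcripts. On glycerol 3 of these 9 were higher and 4 lower, against 16.2% and 70.1% of all transcripts. After centring all 9 were higher on glycerol, against 46.1% of all tested transcripts. All 8 heme synthesis genes were lower in YJM975 on glycerol, with a median of -0.83 beside -0.59 for all transcripts, of which 70.1% were lower. After centring 3 of these 8 were higher and 4 lower, against 46.1% and 37.6% of all tested transcripts. All 11 ubiquinone synthesis genes were lower in YJM975 under the glucose label, with a median of -0.50 beside -0.38 for all transcripts, of which 60.7% were lower. After centring 3 of these 11 were higher and 5 lower, against 43.7% and 39.6% of all tested transcripts. Their median was then -0.068, beside 0.046 for all. COQ8 had the largest difference of this list, -2.23 ± 0.062. On glycerol 4 of the 11 were higher and 4 lower, against 16.2% and 70.1% of all transcripts. After centring 8 were higher and 2 lower on glycerol, against 46.1% and 37.6%. The 7 subunits encoded in mitochondrial DNA summed to at most 20.6 ± 5.06 TPM in any group, in RNA selected for poly(A), so they were not set against the nuclear-encoded subunits.

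CCAAT, the sequence that the HAP complex binds, was looked for upstream of the start codons. Assembly R64 of the reference strain S288C was read over the 500 bases before the start codon, on both strands; RM11 and YJM975 can differ from it. CCAAT was found for 36 of 39 members, or 92.3%, and in 62.4% of 6006 such windows of all genes. The 3 members without a match in this window were NDE2, CYT1 and COX4. AGGGG, the core of the stress response element, was found for 20 members, or 51.3%, and in 34.1% of all windows. A match describes letters, not binding.

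The windows of 30 bases below are from RefSeq's R64 sequence, on the coding strand of each gene, 5′ to 3′. Each is from the member of its class with the largest strain difference among those with a CCAAT, at its match nearest the start codon but at least 100 bases before it. Capitals mark CCAAT, or ATTGG where CCAAT lies on the other strand.
NDI1: tattcattcggaCCAATcatatgaaggcat
SDH1: cgggcctcttctATTGGttgtttgtttgct
QCR10: cgtgattttgatCCAATtaaaactaaatat
COX13: ttttttttcccaCCAATgagaggcggtact
ATP18: actcttaacgacCCAATaaggtcaaacaat
STF1: atttCCAATgggcatgtttctaaaaaggca
The matches begin 227 bases before the start codon of NDI1, 255 before that of SDH1, 199 before QCR10, 212 before COX13, 166 before ATP18 and 496 before STF1. All of these but SDH1 were higher in YJM975 on glycerol, and all but STF1 were lower on ethanol.

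On glycerol the strain difference was more positive for shorter members, as it was for shorter transcripts as a whole. The 18 members of up to 400 coding bases had a median strain difference of 0.62 there and the 21 longer ones 0.26, beside -0.32 and -0.63 for all transcripts of these lengths. The medians under the glucose label were 0.38 and 0.065 for the members, beside -0.10 and -0.41 for all. The difference between the length classes was not tested. On ethanol the members' medians were -0.30 and -0.26. With each library's trend on coding length removed, 38 members were called higher in YJM975 on glycerol and 33 lower on ethanol. The shares of all tested transcripts were then 43.9% higher on glycerol and 29.2% lower on ethanol.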

How the data were processed

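Polyadenylated RNA of 18 cultures was sequenced, and per the labels the authors deposited 1 table of TPM for all libraries. The submitters' processing notes name kallisto; not given in the sources used here are its version, settings, index and genome build. TPM keeps no depth, so the number of libraries (3 a group) and their spread set the precision. Libraries were grouped by their labels and matched by title, and 0 columns of values were left unused. The 39 members and the other gene lists were chosen with earlier results of these data known. Symbols for 5929 transcripts came from RefSeq's annotation of R64. Transcripts with a mean of 1 TPM or more (6309 of 6612) were fitted as log2(TPM + 1) with 1 limma model of 6 group means and a mean-variance trend (R 4.3.3, limma 3.58.1), and 12 contrasts were each adjusted by Benjamini-Hochberg over all tested transcripts, with calls at 0.05. All p-values are two-sided. The fit was tested on simulated data. Per-library values are given for the 2 most abundant members of a class and those with its largest strain differences. Alternatives changed the pseudocount, filter, trend, weights, scaling, samples fitted and replicate block; removal of the coding-length trend was added after seeing the data.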

Additional observations from a re-analysis of the deposited data

Results flagged for a closer look

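The strain difference itself differed between media by the interaction term for most members, which flags them. Between glycerol and glucose the strain difference, YJM975 minus RM11, was called larger on glycerol for 20 members and smaller for 9. The shares of all transcripts were 31.5% and 46.7%. After centring the counts were 29 and 2, against 43.4% and 37.1% of all tested transcripts. Between ethanol and glucose the strain difference was called larger on ethanol for 1 member, NDE2, and smaller for 32, against 56.5% and 20.2% of all transcripts. Between ethanol and glycerol it was called smaller on ethanol for 36, against 15.4% of all transcripts. Among the members named in the text, the difference between ethanol and glycerol was -1.76 ± 0.072 for COX7. Between ethanol and glucose it was -1.52 ± 0.10 for COX9, -1.30 ± 0.11 for QCR8 and 0.95 ± 0.11 for NDE2. Between glycerol and glucose it was 0.93 ± 0.11 for ATP1 and -0.77 ± 0.076 for SDH2. Groups of 3 libraries are too small for a test of single libraries that stand apart.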

How the results depend on the processing

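Each of 468 pairs of a member and a contrast was refitted under each alternative. Pseudocounts of 0.1 and 5, a filter at 10 TPM, no filter, no trend and a robust fit changed 0 to 4 calls each and reversed 0. Scaling changed most: median centring reversed 14, quantile normalization 12, removal of the coding-length trend 11, and rescaling without the 50 most abundant transcripts 5. The causes were not tested. Under the glucose label median centring gave 35 members higher in YJM975 (22 before) and 1 lower (9 before), and the length correction 1 lower. On glycerol 2 were lower, and centring and the length correction gave 0, quantile normalization and rescaling 1. From glycerol to ethanol 4 rose in YJM975, and each of these 4 scalings gave 2; in RM11 3 fell, and centring and the length correction gave 1. From glucose to ethanol quantile normalization gave 2 that rose in YJM975 (1 before), and a fit of the compared groups alone 1 in RM11 (2 before). For the glycerol-to-glucose interaction 9 were negative, against 2 with centring, 4 with quantile normalization and 2 with rescaling. For the ethanol-to-glycerol interaction library weights gave 2 positive (0 before). Leaving out 1 replicate at a time gave 1 to 3 lower on glycerol, 1 to 2 that rose from glucose to ethanol in RM11, and 0 to 1 positive ethanol-to-glycerol interactions; the other counts stayed within 1.5 times. The 1 lower on glycerol came without RM11 replicate 2 or 3 or YJM975 replicate 1 or 3. Same-numbered libraries did not deviate together: of 45 pairs 4 had a correlation over 0.1, from -0.22 to 0.16, and 4 of 18 samples were nearest to their own number. A replicate block lost 1 call and gained 1, with all counts of members within 1.5 times.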
